A study of Mus musculus with 8 samples.

Results

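Mouse embryonic fibroblasts (MEFs) transcribed 10 genes for secreted signals that recruit or sustain leukocytes, and these genes are described here across substrate stiffness and genotype. The 10 genes are Cxcl1, Cxcl5, Cxcl10 and Cxcl12 of the CXC chemokines, Ccl2, Ccl5 and Ccl7 of the CC chemokines, the CX3C chemokine Cx3cl1, and the cytokines Il6 and Csf1. They were chosen by name from the 12528 genes of the deposited table, with earlier results of these data known. Their counts beside those of all genes therefore describe the list and do not test it. All 10 passed the filter on low values that left 12494 genes to test. RNA-seq was performed on 8 libraries in 4 groups of 2: WT MEFs on a stiff substrate, WT MEFs on a soft substrate, Cav1KO MEFs on stiff and Cav1KO MEFs on soft. WT and Cav1KO cells came from littermate mice and had been immortalized, so each genotype is represented by cultured fibroblast lines and not by tissue. Cav1KO cells lack caveolin 1, the main coat protein of caveolae. An effect of Cav1 loss and a difference between the cell lines cannot be told apart here. All cells were seeded at low confluence on polyacrylamide gels coated with fibronectin and harvested after 24 h, with no further agent added. The study used the 2 stiffnesses to ask whether Cav1 conveys substrate rigidity to gene expression.

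Chemokines are small secreted proteins that bind G protein-coupled receptors on leukocytes and direct their migration, and the spacing of the first cysteines of the protein gives each family its name. Fibroblasts are a major tissue source of them. Stromal Cxcl12 retains stem cells and lymphocytes, Csf1 keeps macrophages alive, and Il6 signals through gp130 and STAT3. Transcription of many of these genes in fibroblasts is started by NF-kB and, for Cxcl10 and Ccl5, by interferon regulatory factors, while AU-rich element proteins shorten the life of several of the mRNAs.

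The coding stretch around the cysteine motif is shown for the 8 chemokine genes because it is what separates the families within the list. Each stretch lies in 1 exon of the GENCODE M21 annotation of GRCm38 and has 15 bases on each side of the motif. Capitals mark the codons of the motif's cysteines.
Cxcl1 (chr5:90891481-90891519, plus strand): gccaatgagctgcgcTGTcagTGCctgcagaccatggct
Cxcl5 (chr5:90759712-90759750, plus strand): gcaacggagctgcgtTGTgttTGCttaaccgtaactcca
Cxcl10 (chr5:92348166-92348204, minus strand): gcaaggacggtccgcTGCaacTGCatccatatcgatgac
Cxcl12 (chr6:117171493-117171531, plus strand): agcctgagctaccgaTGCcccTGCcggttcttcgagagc
Ccl2 (chr11:82036491-82036526, plus strand): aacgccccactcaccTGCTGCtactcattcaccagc
Ccl7 (chr11:82046523-82046558, plus strand): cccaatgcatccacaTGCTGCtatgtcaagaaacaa
Ccl5 (chr11:83529227-83529262, minus strand): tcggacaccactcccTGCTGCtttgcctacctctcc
Cx3cl1 (chr8:94778036-94778080, plus strand): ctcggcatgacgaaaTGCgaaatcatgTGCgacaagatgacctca
The cysteine codons are adjacent in Ccl2, Ccl7 and Ccl5, 3 bases apart in the 4 CXC genes and 9 bases apart in Cx3cl1. In Cxcl1 and Cxcl5 the motif directly follows codons for the ELR residues that mark neutrophil-attracting CXC chemokines, and Cxcl10 and Cxcl12 have other codons there. Il6 and Csf1 are not chemokines and have no such stretch.

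Promoters were at hand for 6 of the 10 genes (Il6, Cxcl1, Cxcl10, Cxcl12, Csf1 and Cx3cl1) from RefSeq on GRCm38.p6. Those of Il6, Cxcl1 and Cxcl10 are printed because Il6 and Cxcl1 responded to stiffness in opposite directions in the 2 genotypes, whereas Cxcl10 fell in both. Each line gives the 250 bases before the annotated start site. Capitals mark matches to the NF-kB consensus and, in Cxcl10 alone, also the match to the interferon-stimulated response element GAAANNGAAA.
Il6 (chr5:30012864-30013113, plus strand): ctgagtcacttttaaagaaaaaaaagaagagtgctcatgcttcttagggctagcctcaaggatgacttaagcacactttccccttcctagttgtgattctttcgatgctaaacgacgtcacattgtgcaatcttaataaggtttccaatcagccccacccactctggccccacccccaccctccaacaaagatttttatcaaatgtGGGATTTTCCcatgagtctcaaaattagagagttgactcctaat
Cxcl1 (chr5:90890995-90891244, plus strand): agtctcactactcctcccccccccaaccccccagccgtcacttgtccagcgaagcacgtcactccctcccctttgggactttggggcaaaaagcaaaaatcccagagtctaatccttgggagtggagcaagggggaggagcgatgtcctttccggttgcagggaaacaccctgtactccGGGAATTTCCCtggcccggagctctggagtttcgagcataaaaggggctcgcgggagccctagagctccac
Cxcl10 (chr5:92348890-92349139, minus strand): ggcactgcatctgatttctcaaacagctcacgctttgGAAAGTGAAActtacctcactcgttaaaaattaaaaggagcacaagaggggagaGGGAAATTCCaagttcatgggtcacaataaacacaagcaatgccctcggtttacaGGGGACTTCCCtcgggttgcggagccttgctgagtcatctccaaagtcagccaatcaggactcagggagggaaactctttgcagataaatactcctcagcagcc
Motifs were searched on both strands in 300 bases, from 250 before to 50 after the start site. Positions are given for the first base of a match, counted from the start site. The NF-kB consensus was matched in Il6 at -44, in Cxcl1 at -71, in Cxcl10 at -159 and -104, and in Csf1 at -154. Within the matches of Cxcl1 and Cxcl10 nearest to the start site, frames shifted by 1 base matched as well. Of all 32851 promoters in the RefSeq table, 8.46% held the NF-kB consensus, and a looser pattern tried first, GGGNNNNNCC, was in 50.8% and was set aside for that reason. The interferon element was matched in Cxcl10 at -213 and in 3.44% of all promoters. The AP-1 letters TGANTCA (7.81% of all promoters) were found in Il6 and Cxcl10, the C/EBP letters TTNNGNAAT (11.5%) in Il6 and Cxcl10, and the TATA box letters TATAAA (13.6%) in Cx3cl1. The TEAD letters GGAATG (14.7% of all promoters) were in none of these 6 windows, which says nothing of sites elsewhere.

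**Figure D1:**
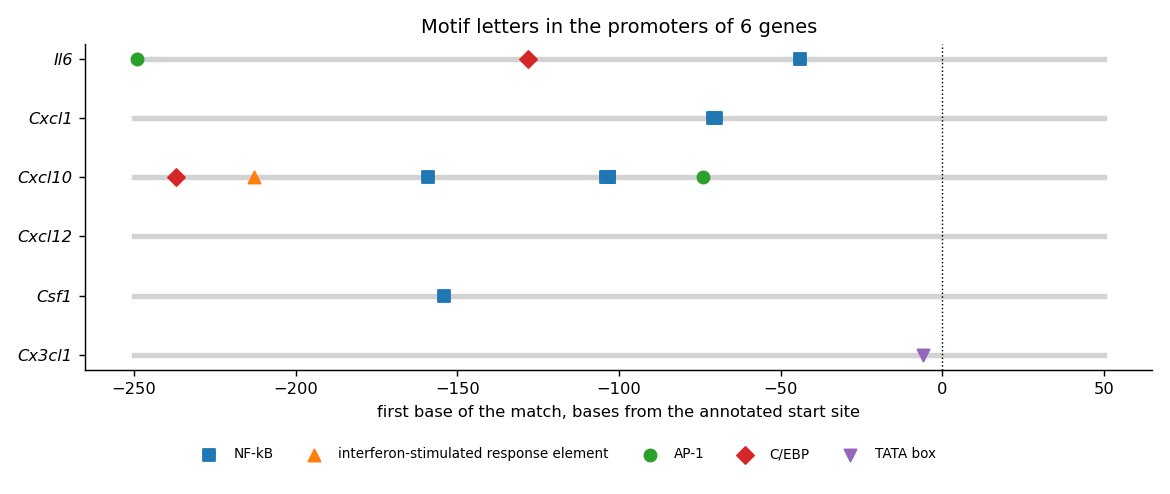
Position of motif matches on either strand in the promoters of 6 genes; the x axis is the distance in bases of the first base of the match from the annotated start site, each grey line spans the searched window, and the dotted line is the start site. Il6, Cxcl1, Cxcl10 and Csf1 hold an NF-kB match, Cxcl10 alone holds the interferon element, and Cxcl12 holds none of the motifs.

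Reads recovered from the deposited values, summed over the 12528 genes listed, ranged from 17089836 to 19944952 per library. Cav1, the targeted gene, ranged from 949.8 to 1157 CPM (TMM-normalized counts, as deposited) in WT cells and did not exceed 0.411 CPM in any Cav1KO library. Of 12 fibroblast markers 10 were analysed, among them Col1a1, Col1a2, Vim and Fn1, and their summed level was 9256 to 9429 CPM in WT stiff, 12049 to 12198 CPM in WT soft, 4559 to 5704 CPM in Cav1KO stiff and 14016 to 14060.5 CPM in Cav1KO soft. These markers moved with stiffness in the direction most chemokines did: 8 of 10 were lower on stiff in WT cells and 10 of 10 in Cav1KO cells. Over all tested genes 26.3% were lower in WT cells and 28.2% in Cav1KO cells. Of 12 macrophage markers only Cd68 and Cd14 were analysed here, with a sum of 24.9 to 40.4 CPM in WT and 92.8 to 104 CPM in Cav1KO libraries. The other 10, Ptprc, Adgre1 and Csf1r among them, were not among the 12528 genes listed, so no value of them can be given. The part of these markers in the results below was not tested. In bulk RNA, fewer cells expressing a gene and less of its RNA per cell cannot be told apart. The labels do not say that the 2 libraries of a group came from separate cultures, so p-values measure the spread between these libraries, which may be technical.

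Per kilobase of the longest coding transcript, Cxcl5 was the most abundant of the 10 mRNAs in every group, with group means from 340 CPM per kb in WT stiff to 941 CPM per kb in WT soft. Il6 was the least abundant in 3 groups, at 2.34 CPM per kb in WT stiff, 6.26 in WT soft and 1.37 in Cav1KO soft. In Cav1KO stiff, Ccl7 at 2.98 CPM per kb was below Il6 at 4.05. Cxcl12 and Cxcl1 exchanged places between groups: Cxcl12 was second in WT stiff (143 against 116 CPM per kb) and in Cav1KO soft (251 against 174), and Cxcl1 was second in WT soft (328 against 243) and Cav1KO stiff (249.9 against 153). Ccl5 came after these genes in 3 groups, but in Cav1KO soft, at 209 CPM per kb, it stood above Cxcl1. Of all neighbours in these orders, the libraries overlapped only for Cx3cl1 and Cxcl10 in WT soft (means of 52.8 CPM per kb for both) and in Cav1KO stiff (25.3 and 23.5 CPM per kb). Parts of the order depend on the length used. Per kilobase of all exons joined, Cxcl12 and Cxcl1 were nearly level in WT soft (167.1 and 166.6 CPM per kb). By that length Csf1 stood above Ccl5 in WT stiff (34.8 and 29.2), and Cx3cl1 above Cxcl10 in WT soft (44.5 and 31.7). In reads, a member had from 30 reads in a library (Ccl7) to 29002 (Cxcl5), so the counts behind Ccl7 and Il6 are the thinnest.

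**Figure D2:**
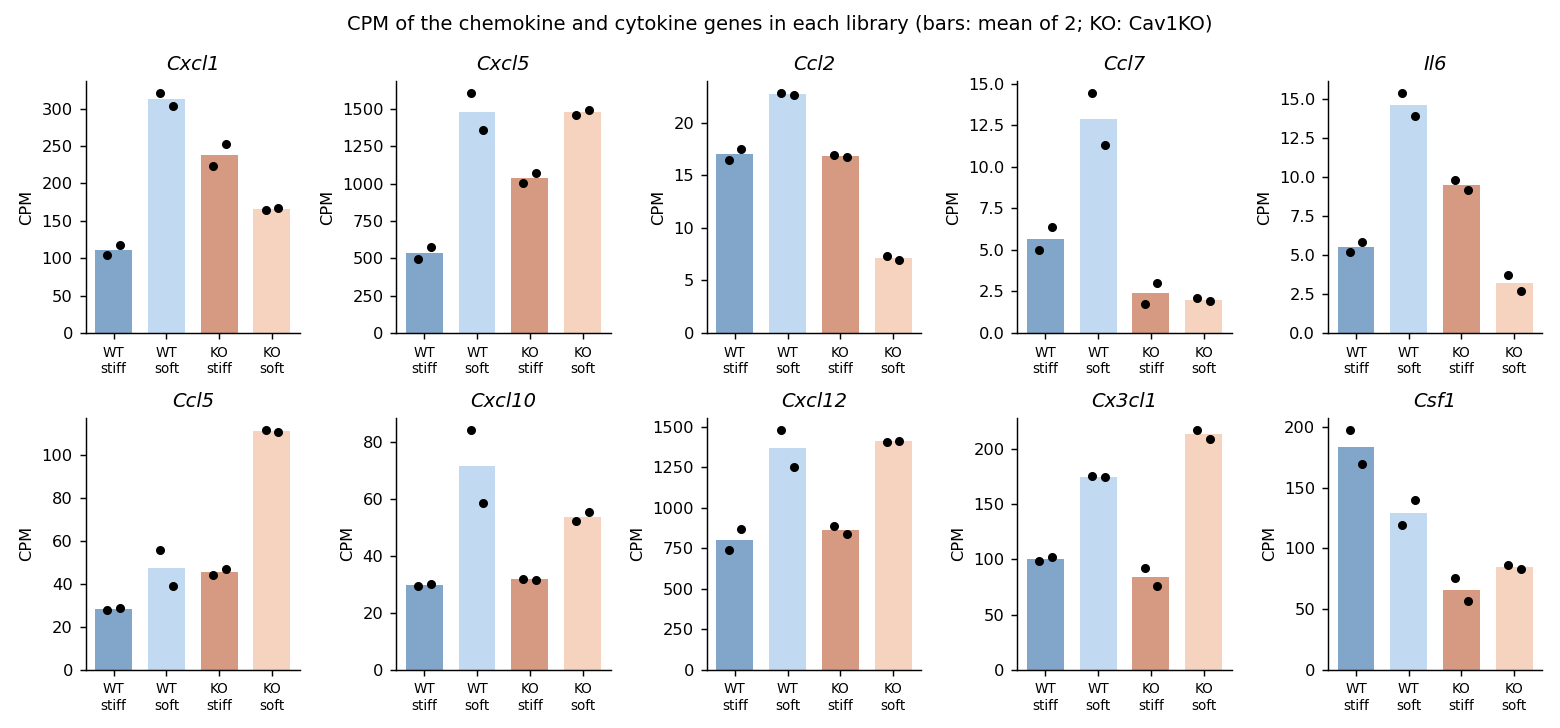
Normalized CPM of the 10 genes in each library (black points) with the mean of the 2 libraries of a group (bars), on linear axes from 0. Cxcl1, Ccl2 and Il6 are lower on stiff than on soft in WT cells and higher on stiff than on soft in Cav1KO cells, and Csf1 alone is highest in WT stiff.

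In WT MEFs, 9 of the 10 genes had a lower level on stiff than on soft gels and 1, Csf1, a higher one. In Cav1KO MEFs, 5 genes were still lower on stiff (Ccl5, Cxcl5, Cxcl10, Cxcl12 and Cx3cl1), but Ccl2, Cxcl1 and Il6 were higher on stiff, and Ccl7 and Csf1 did not pass the test. Genes were tested with limma, and p-values were adjusted by Benjamini-Hochberg over all 12494 genes, with 0.05 as the threshold. Substrate stiffness moved a large share of all genes, so these counts have to be read against it: 26.3% of the tested genes were lower and 22.1% higher on stiff in WT cells, and 28.2% were lower and 27.9% higher in Cav1KO cells. The median log2 fold change of the 10 genes was -0.93 in WT and -0.44 in Cav1KO cells, against -0.02 over all tested genes in either genotype. Because the 10 genes were chosen with earlier results known, such comparisons with all genes are a description only. The combination of a fall on stiff in WT cells and a rise on stiff in Cav1KO cells was called for 3 of the 10 genes and for 65 of all tested genes (0.520%), while a fall in both genotypes was called for 5 of the 10 and for 17.0% of all. In both genotypes the stiff and soft libraries of these called genes did not overlap, and the share of all tested genes without overlap was not counted.

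**Figure D3:**
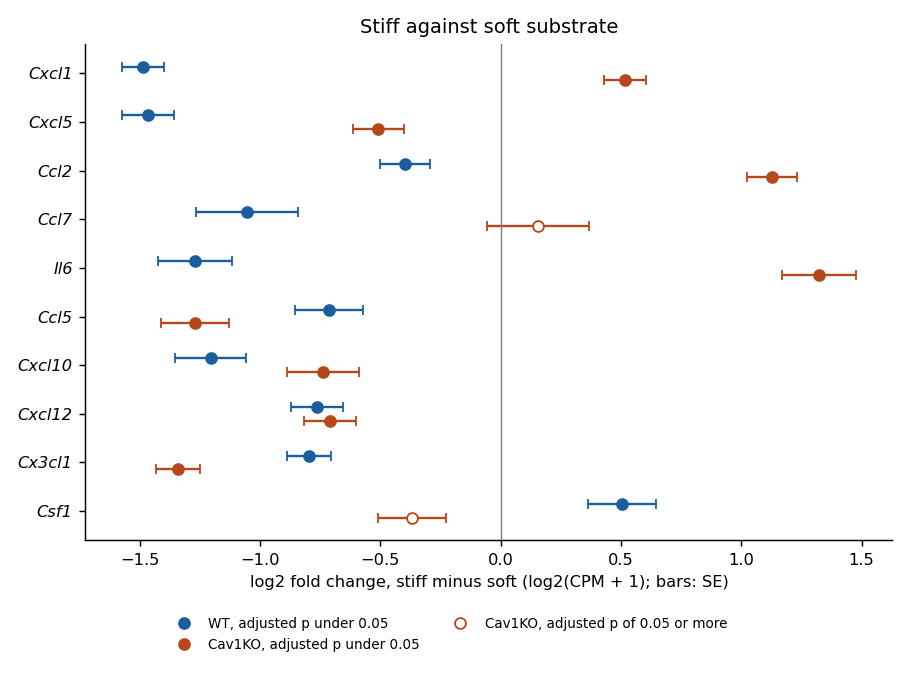
Log2 fold change between the stiff and the soft substrate on the log2(CPM + 1) scale (x axis) for each gene in WT (blue) and Cav1KO cells (orange); bars are standard errors and open circles did not pass the adjusted p threshold. Ccl2, Cxcl1 and Il6 lie on opposite sides of 0 in the 2 genotypes, and Cxcl12 lies at nearly the same place in both.

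Cxcl1 and Cxcl5 (Cxcl1 at chr5:90891241-90893115 and Cxcl5 at chr5:90759360-90761624, both on the plus strand) encode ELR chemokines that attract neutrophils through CXCR2. Cxcl1 was at 105 and 117 CPM in WT stiff, 321 and 304 in WT soft, 223 and 253 in Cav1KO stiff, and 165 and 167 in Cav1KO soft. No library of any group overlapped another group, and the order of the substrates was opposite in the 2 genotypes. Cxcl1 mean CPM was 2.82-fold higher on soft than on stiff in WT cells (log2 fold change of stiff over soft -1.49, SE 0.09, adjusted p = 3.25e-05) and 1.44-fold higher on stiff in Cav1KO cells (0.52, SE 0.09, adjusted p = 0.00115). Cxcl5, the most abundant gene of the list, was at 494 and 577 CPM in WT stiff, 1607 and 1357 in WT soft, 1006 and 1069 in Cav1KO stiff, and 1462 and 1491 in Cav1KO soft. It was lower on stiff in both genotypes, by -1.47 (SE 0.11, adjusted p = 4.73e-05) in WT and by only -0.51 (SE 0.11, adjusted p = 0.00381) in Cav1KO cells. On the soft substrate the Cxcl5 libraries of the 2 genotypes overlapped. Of the 60-base windows of the Cxcl5 transcripts, 0.686% also occur in other genes (4930470B04Rik and Ilf2), and no window of the other 9 genes does.

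Ccl2 and Ccl7 (neighbours at chr11:82035571-82037453 and chr11:82045712-82047525, plus strand) encode monocyte chemoattractants that act on CCR2. Ccl2 was at 16.5 and 17.6 CPM in WT stiff, 22.8 and 22.7 in WT soft, 16.9 and 16.8 in Cav1KO stiff, and 7.37 and 6.99 in Cav1KO soft. On the stiff substrate the 2 genotypes overlapped, and Cav1KO soft stood below every other group. Ccl2 was slightly lower on stiff in WT cells (log2 fold change -0.40, SE 0.10, adjusted p = 0.0128) and 2.35-fold higher on stiff in Cav1KO cells (1.13, SE 0.10, adjusted p = 5.60e-05). Ccl7 was at 4.97 and 6.38 CPM in WT stiff, 14.4 and 11.3 in WT soft, 1.77 and 3.01 in Cav1KO stiff, and 2.09 and 1.90 in Cav1KO soft. Both Cav1KO groups lay below both WT groups, and within Cav1KO cells the substrates overlapped. The WT change of Ccl7 was -1.06 (SE 0.21, adjusted p = 0.00377), and the Cav1KO value was 0.15 (95% interval -0.33 to 0.64, adjusted p = 0.568), at 30 to 55 reads per library. The Ccl2 call in WT cells was lost without WT stiff 1 (log2 fold change -0.36, adjusted p = 0.0748), without WT soft 1 (-0.39, adjusted p = 0.0615) and with DESeq2 on recovered reads (-0.42, adjusted p = 0.0633), over a range of adjusted p from 0.00714 to 0.0748 in 18 alternatives.

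Il6 (chr5:30013114-30019981, plus strand) encodes interleukin 6, the gp130 cytokine of acute inflammation. It was at 5.17 and 5.81 CPM in WT stiff, 15.4 and 13.9 in WT soft, 9.83 and 9.15 in Cav1KO stiff, and 3.71 and 2.73 in Cav1KO soft. The 4 groups did not overlap, with the order WT soft, Cav1KO stiff, WT stiff and Cav1KO soft from the highest to the lowest. Il6 mean CPM was 2.67-fold higher on soft in WT cells (log2 fold change of stiff over soft -1.27, SE 0.15, adjusted p = 0.000301) and 2.95-fold higher on stiff in Cav1KO cells (1.32, SE 0.15, adjusted p = 0.000163). The libraries held 53 to 259 Il6 reads. With a pseudocount of 5 CPM in place of 1 the Cav1KO change was 0.82, still called.

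Ccl5 and Cxcl10 encode chemokines for T cells and natural killer cells. Ccl5 (chr11:83525778-83530518, minus strand) was at 27.6 and 28.6 CPM in WT stiff, 55.5 and 39.1 in WT soft, 44.3 and 46.7 in Cav1KO stiff, and 112 and 110.4 in Cav1KO soft. It was lower on stiff in WT cells (log2 fold change -0.71, SE 0.14, adjusted p = 0.00362) and in Cav1KO cells (-1.27, SE 0.14, adjusted p = 0.000136), and Cav1KO soft was above every other group. Without WT soft 1 the WT change of Ccl5 was -0.47, still called. Cxcl10 (chr5:92346638-92348889, minus strand) was at 29.6 and 30.2 CPM in WT stiff, 84.3 and 58.5 in WT soft, 32.0 and 31.7 in Cav1KO stiff, and 52.1 and 55.5 in Cav1KO soft. The 4 stiff libraries of Cxcl10 spanned only 29.6 to 32.0 CPM and the 4 soft libraries were all higher. Its change was -1.21 (SE 0.15, adjusted p = 0.000331) in WT and -0.74 (SE 0.15, adjusted p = 0.00294) in Cav1KO cells. The 2 WT soft libraries stood further apart for Ccl5 and Cxcl10 than the 2 Cav1KO soft libraries did, with WT soft 1 the higher for both. Exons of Cxcl10 overlap those of Art3 on the other strand, the kit is not stated to keep strand, and reads of these genes cannot be told apart there. Art3 was not among the 12528 genes listed, so no value of it can be set beside Cxcl10.

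Cxcl12 (chr6:117168535-117181367, plus strand) encodes the homeostatic ligand of CXCR4, and Cx3cl1 (chr8:94772009-94782427, plus strand) encodes fractalkine, a membrane-anchored chemokine that is shed by ADAM proteases. Cxcl12 was at 736 and 871 CPM in WT stiff, 1482 and 1251 in WT soft, 887 and 837 in Cav1KO stiff, and 1408 and 1413 in Cav1KO soft. At each stiffness the WT and Cav1KO libraries of Cxcl12 overlapped, and every soft library was above every stiff library. Its change was -0.76 (SE 0.11, adjusted p = 0.000682) in WT and -0.71 (SE 0.11, adjusted p = 0.000731) in Cav1KO cells. Cx3cl1 was at 98.3 and 102 CPM in WT stiff, 176 and 174 in WT soft, 91.9 and 76.1 in Cav1KO stiff, and 218 and 209 in Cav1KO soft. The 4 groups of Cx3cl1 did not overlap, and the Cav1KO groups lay outside the WT groups at both ends. The change on stiff was -0.80 (SE 0.09, adjusted p = 0.000249) in WT and -1.34 (SE 0.09, adjusted p = 1.89e-05) in Cav1KO cells.

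Csf1 (chr3:107741048-107760469, minus strand) encodes macrophage colony-stimulating factor. It was at 198 and 169.9 CPM in WT stiff, 119 and 139.6 in WT soft, 75.4 and 56.4 in Cav1KO stiff, and 85.9 and 83.1 in Cav1KO soft. Every WT library was above every Cav1KO library, and Csf1 was the only gene of the list that was higher on stiff in WT cells (1.42-fold, log2 fold change 0.50, SE 0.14, adjusted p = 0.0176). That call was lost without WT stiff 1 (0.39, adjusted p = 0.110) and without WT soft 1 (0.39, adjusted p = 0.131), over a range of 0.00132 to 0.131 in 18 alternatives. In Cav1KO cells the value was -0.37 (95% interval -0.69 to -0.05, adjusted p = 0.0519), which was called in 4 of 18 alternatives, for example without Cav1KO stiff 1 (-0.57, adjusted p = 0.00459), over a range of 0.00459 to 0.313.

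The stiffness response itself differed between WT and Cav1KO MEFs for 7 of the 10 genes, tested as the WT log2 fold change minus the Cav1KO log2 fold change. Il6 differed most, at -2.59 (SE 0.22, adjusted p = 0.00161), followed by Cxcl1 at -2.00 (SE 0.12, adjusted p = 0.00127) and Ccl2 at -1.53 (SE 0.15, adjusted p = 0.00254). Ccl7 at -1.21 (SE 0.30, adjusted p = 0.0426) and Cxcl5 at -0.96 (SE 0.15, adjusted p = 0.0129) had the same sign. Csf1 at 0.87 (SE 0.20, adjusted p = 0.0365) and Cx3cl1 at 0.54 (SE 0.13, adjusted p = 0.0402) had the opposite sign. Over all tested genes the difference was called with a negative value for 6.0% and with a positive value for 4.47%, against 5 and 2 of the 10 genes here. The median difference was -0.71 over the 10 genes and -0.07 over all genes. For Cxcl12 the difference was -0.05 (95% interval -0.41 to 0.30, adjusted p = 0.826), for Cxcl10 -0.47 (-0.94 to 0.01, adjusted p = 0.153) and for Ccl5 0.56 (0.10 to 1.01, adjusted p = 0.0933).

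The differences of Il6, Cxcl1 and Ccl2 were called in all 18 alternatives, and with a pseudocount of 5 that of Il6 was -1.73. The other 4 calls did not hold in all alternatives. Cxcl5 was called in 15 of 18 alternatives (adjusted p from 2.82e-07 to 0.0855) and lost without WT stiff 1 (adjusted p = 0.0524), Cav1KO soft 1 (0.0855) or Cav1KO soft 2 (0.0738). Ccl7 was called in 8 of 18 (0.0102 to 0.150) and lost without WT stiff 1 (0.150), WT soft 1 (0.132), WT soft 2 (0.0676), Cav1KO stiff 2 (0.0968), Cav1KO soft 1 (0.143) or Cav1KO soft 2 (0.130). With all libraries kept, Ccl7 was also lost with a pseudocount of 0.25 (0.0577), without the mean-variance trend (0.0539), with edgeR on recovered reads (0.0546) and with the replicate block (0.0501). Csf1 was called in 11 of 18 (0.000589 to 0.143) and lost without WT stiff 1 (0.133), WT soft 1 (0.1202), WT soft 2 (0.0599), Cav1KO stiff 2 (0.0637), Cav1KO soft 1 (0.143) or Cav1KO soft 2 (0.113). Cx3cl1 was called in 10 of 18 (0.00625 to 0.158) and lost without any 1 library but Cav1KO stiff 1, at 0.0646 to 0.158. Without the trend Csf1 (0.0615) and Cx3cl1 (0.0731) were lost as well. Cxcl10 became called without WT soft 2 (-0.73, adjusted p = 0.0395), and Ccl5 without WT soft 1 (0.80, adjusted p = 0.0325).

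The genotype comparison on each substrate shares its libraries with the stiffness comparisons and is given side by side with them. On the stiff substrate 4 genes were higher in Cav1KO than in WT cells and 3 were lower, while 25.0% of all tested genes were higher and 26.6% lower. Cxcl1 was 2.15-fold higher (log2 fold change 1.09, SE 0.09, adjusted p = 1.58e-05), Cxcl5 1.94-fold (0.96, SE 0.11, adjusted p = 0.000129), Il6 1.73-fold (0.69, SE 0.15, adjusted p = 0.00527) and Ccl5 1.62-fold (0.68, SE 0.14, adjusted p = 0.00407). Csf1 was 2.79-fold lower (-1.48, SE 0.14, adjusted p = 4.95e-05) and Ccl7 2.38-fold lower (-0.995, SE 0.21, adjusted p = 0.00443; -0.53 with a pseudocount of 5). Ccl2 at -0.01 (95% interval -0.25 to 0.23), Cxcl10 at 0.09 (-0.25 to 0.43) and Cxcl12 at 0.11 (-0.14 to 0.35) did not pass the test. Cx3cl1 was lower at -0.26 (SE 0.09, adjusted p = 0.0435), a call that held in 7 of 18 alternatives (0.00409 to 0.2495) and was lost without any 1 library but Cav1KO stiff 1. It was -0.39 without Cav1KO stiff 1 and -0.12 (adjusted p = 0.2495) without Cav1KO stiff 2, and with all libraries kept it was lost without the trend (0.0835), with median centring (0.0850), with edgeR (0.0516) and with DESeq2 (0.0726).

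On the soft substrate the changes of Cxcl1, Il6 and Cx3cl1 had the opposite sign. Ccl5 and Cx3cl1 were higher in Cav1KO than in WT cells and 5 genes were lower, while 24.1% of all tested genes were higher and 29.9% lower. Ccl5 was 2.35-fold higher (log2 fold change 1.23, SE 0.14, adjusted p = 0.000134). Ccl7 was 6.45-fold lower (-2.20, SE 0.21, adjusted p = 4.78e-05; -1.35 with a pseudocount of 5), Il6 4.56-fold lower (-1.90, SE 0.15, adjusted p = 1.69e-05; -1.26 with that pseudocount) and Ccl2 3.17-fold lower (-1.54, SE 0.10, adjusted p = 6.19e-06). Cxcl1 was 1.88-fold lower (-0.91, SE 0.09, adjusted p = 4.52e-05) and Csf1 1.53-fold lower (-0.60, SE 0.14, adjusted p = 0.00656). Cxcl1 and Il6 were therefore above WT on stiff and below WT on soft, whereas Ccl5 was above WT on both and Csf1 and Ccl7 below WT on both. Cx3cl1 was higher at 0.29 (SE 0.09, adjusted p = 0.0279). Cxcl5 at 0.00 (95% interval -0.25 to 0.24), Cxcl12 at 0.05 (-0.20 to 0.30) and Cxcl10 at -0.38 (-0.72 to -0.04, adjusted p = 0.0578) did not pass the test. The Cx3cl1 call was lost without WT soft 1 (adjusted p = 0.0912), WT soft 2 (0.0962), Cav1KO soft 1 (0.146) or Cav1KO soft 2 (0.0837) and without the trend (0.0586), over a range of 0.00583 to 0.146, and the Csf1 call without WT soft 2 (0.0548, range 0.00014 to 0.0548). Cxcl10 was called with edgeR (-0.41, adjusted p = 0.0458), with DESeq2 (-0.38, adjusted p = 0.0434) and without WT soft 2 (-0.64, adjusted p = 0.00232), and under quantile normalization Cxcl5 (0.27, adjusted p = 0.0212) and Cxcl12 (0.30, adjusted p = 0.0220) did.

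**Figure D4:**
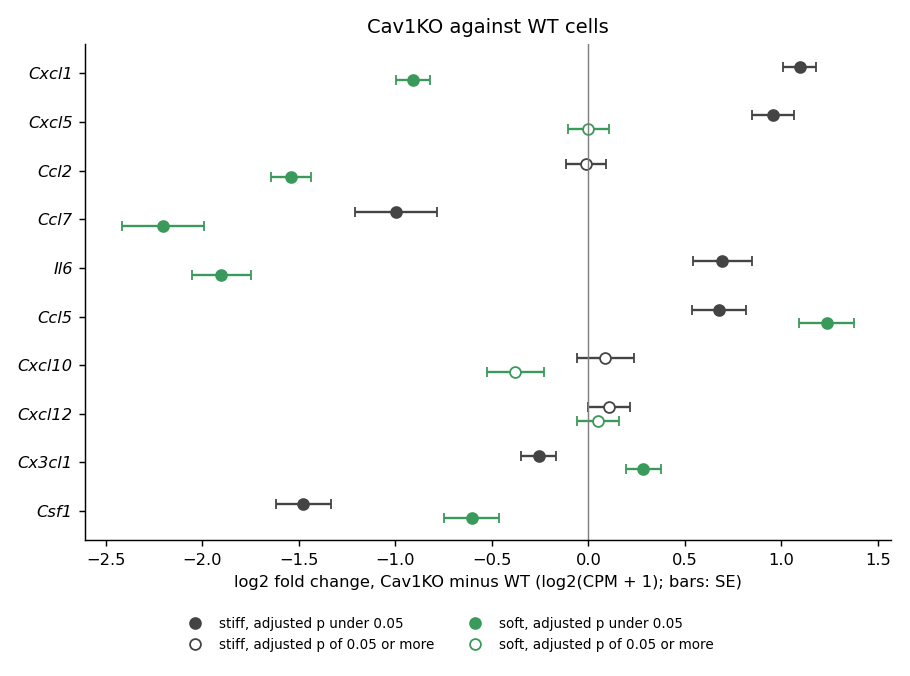
Log2 fold change between Cav1KO and WT cells on the log2(CPM + 1) scale (x axis) for each gene on the stiff (grey) and soft (green) substrate; bars are standard errors and open circles did not pass the adjusted p threshold. Cxcl1 and Il6 are above 0 on stiff and below 0 on soft, Ccl5 is above 0 on both, and Csf1 and Ccl7 are below 0 on both.

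The other genes of these pathways came from hand-made lists, and each list's count is given with the share of all tested genes. Of 30 other chemokine ligands 7 were analysed: 5 were lower on stiff in WT cells and 1 in Cav1KO cells. Over all tested genes 26.3% were lower in WT cells and 28.2% in Cav1KO cells. Ppbp, a further CXCR2 ligand, was at 70.2 and 93.1 CPM in WT stiff, 194 and 184 in WT soft, 8.18 and 7.84 in Cav1KO stiff, and 8.89 and 8.95 in Cav1KO soft. It was lower in every Cav1KO library than in any WT library, and its stiffness difference between genotypes was -1.08 (adjusted p = 0.0161). Ccl9, a CCR1 ligand, also fell on stiff in WT cells (-1.60, adjusted p = 0.00312), with a Cav1KO value of 0.08 (adjusted p = 0.852). Cxcl16, a membrane-anchored ligand of CXCR6, was higher in Cav1KO cells on stiff (2.24, adjusted p = 1.41e-05) and on soft (1.996, adjusted p = 2.66e-05).

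Of 35 other cytokines 19 were analysed: 4 were higher and 7 lower on stiff in WT cells, and 3 were higher and 7 lower in Cav1KO cells. Il1rn, the interleukin 1 receptor antagonist, was at 14.3 and 18.8 CPM in WT stiff, 71.7 and 52.3 in WT soft, and between 65.3 and 120.4 CPM in the Cav1KO libraries. It fell on stiff in both genotypes, by -1.84 (adjusted p = 9.42e-05) in WT and -0.76 (adjusted p = 0.00463) in Cav1KO cells. Lif, like Il6 a gp130 cytokine, was higher on stiff in Cav1KO cells (0.70, adjusted p = 0.00186), with a WT value of 0.32 (adjusted p = 0.0680), and it was lower in Cav1KO cells on stiff (-2.22, adjusted p = 2.73e-06) and on soft (-2.60, adjusted p = 9.63e-07). Il33, an alarmin of the interleukin 1 family, was at most 0.725 CPM in WT libraries and from 12.1 to 17.4 CPM in Cav1KO libraries.

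Of 43 receptors 24 were analysed, and most of those that moved were lower on stiff: 14 lower and 2 higher in WT cells, 13 lower and 4 higher in Cav1KO cells. Lifr, the receptor chain for Lif, was at 6.43 and 6.21 CPM in WT stiff, 15.3 and 14.7 in WT soft, 93.6 and 79.5 in Cav1KO stiff, and 276 and 263 in Cav1KO soft. Its level thus ran opposite to that of Lif between the genotypes, with all Cav1KO libraries above all WT libraries. Osmr, the oncostatin M receptor chain, was also higher in Cav1KO cells on both substrates (1.34 on stiff, adjusted p = 8.75e-05, and 1.79 on soft, adjusted p = 1.45e-05). By the same limma test Il4ra (-1.66, adjusted p = 2.87e-06, and -0.92, adjusted p = 8.72e-05) and Il17ra (-1.36, adjusted p = 2.05e-05, and -0.96, adjusted p = 0.000156) were lower on both. Of the 24 receptors 9 were higher and 6 lower in Cav1KO cells on stiff, and 8 and 7 on soft. All tested genes gave 25.0% and 26.6% on stiff, and 24.1% and 29.9% on soft. Il1rl1, which encodes the receptor for interleukin 33, was at 566 and 694 CPM in WT stiff, 897 and 920.4 in WT soft, 2005 and 2368 in Cav1KO stiff, and 1049 and 1068 in Cav1KO soft. Like Il6, Cxcl1 and Ccl2, it was lower on stiff in WT cells (-0.54, adjusted p = 0.00522) and higher on stiff in Cav1KO cells (1.04, adjusted p = 0.000129), with a difference of -1.58 (adjusted p = 0.00289). Ackr3, the scavenger receptor for Cxcl12, was higher on stiff in Cav1KO cells (0.39, adjusted p = 0.00539), with a WT value of 0.05 (adjusted p = 0.641).

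All 40 genes of the NF-kB list were analysed: 3 were higher and 17 lower on stiff in WT cells, and 6 were higher and 15 lower in Cav1KO cells. These are 7.5% and 42.5% in WT and 15% and 37.5% in Cav1KO cells. For all tested genes the shares were 22.1% and 26.3% in WT, and 27.9% and 28.2% in Cav1KO cells. Tlr2, a receptor upstream of NF-kB, was at 9.44 and 11.4 CPM in WT stiff, 67.9 and 62.4 in WT soft, 41.4 and 49.5 in Cav1KO stiff, and 81.9 and 81.8 in Cav1KO soft. It was lower on stiff in both genotypes, and the fall was larger in WT cells (difference -1.70, adjusted p = 0.00254). Cebpd, a C/EBP factor that acts with NF-kB on Il6, was lower on stiff in WT cells (-0.73, adjusted p = 0.00170) and higher on stiff in Cav1KO cells (0.51, adjusted p = 0.00744), with a difference of -1.24 (adjusted p = 0.00866). Between genotypes, 13 of the 40 were higher and 9 lower in Cav1KO cells on stiff, and 12 were higher and 14 lower on soft. Over all tested genes 25.0% were higher and 26.6% lower on stiff, and 24.1% and 29.9% on soft. Birc3, a common NF-kB target, was higher in Cav1KO cells on stiff (1.61, adjusted p = 8.19e-06) and soft (0.98, adjusted p = 0.000136), and Tnfaip3, the feedback inhibitor A20, was lower on both (-1.04, adjusted p = 0.00014, and -0.98, adjusted p = 0.000183). Traf1, a further NF-kB target, was lower on both (-1.32, adjusted p = 0.000172, and -1.26, adjusted p = 0.000203), and Tnip1, which acts with A20, was higher on both (0.50, adjusted p = 0.00867, and 1.09, adjusted p = 0.000116). In the JAK-STAT3 list, downstream of Il6 and Lif, 1 of 12 genes (8.33%) was higher and 4 (33.3%) were lower on stiff in each genotype. The shares of all tested genes were again 22.1% and 26.3% in WT, and 27.9% and 28.2% in Cav1KO cells. Socs3, a feedback inhibitor of gp130, was higher in Cav1KO cells on stiff (1.18, adjusted p = 0.000132) and soft (0.81, adjusted p = 0.00101). By the same limma test Pias3 was lower on both (-0.95, adjusted p = 0.000226, and -1.10, adjusted p = 8.78e-05), and Socs1 was lower on soft (-1.05, adjusted p = 0.000165). Of the 12 genes 3 were higher and 4 lower in Cav1KO cells on stiff, and 5 and 4 on soft, beside the genotype shares of all genes given above.

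Most genes of the interferon list, which holds known regulators of Cxcl10, fell on stiff in both genotypes: 10 of 14 were lower and 1 was higher in WT cells, and 11 of 14 were lower in Cav1KO cells. Over all tested genes 26.3% were lower and 22.1% higher in WT cells, and 28.2% were lower in Cav1KO cells. The median log2 fold change of the list was -0.75 in WT and -1.02 in Cav1KO cells, against -0.02 over all tested genes in either genotype. Irf7 was at 6.68 and 14.1 CPM in WT stiff, 132 and 72.6 in WT soft, 7.003 and 4.275 in Cav1KO stiff, and 89.4 and 94.8 in Cav1KO soft. As for Ccl5 and Cxcl10, WT soft 1 was the higher of the 2 WT soft libraries, and the part of this in the results was not tested. Stat2 was lower on stiff, at -2.29 in WT (adjusted p = 0.000162) and -2.995 in Cav1KO cells (adjusted p = 2.99e-05).

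**Figure D5:**
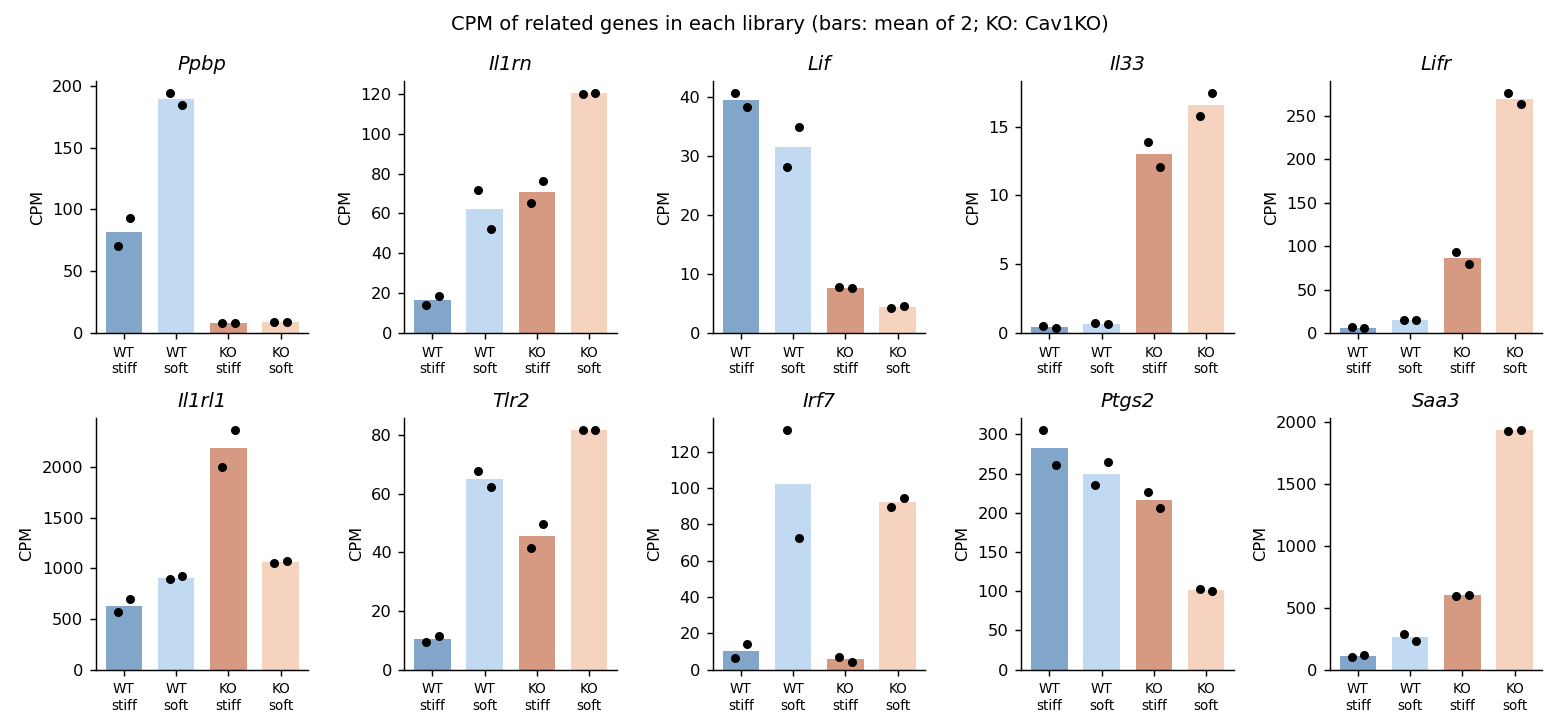
Normalized CPM of 10 related genes in each library (black points) with the mean of the 2 libraries of a group (bars), on linear axes from 0. Ppbp and Lif are low in all Cav1KO libraries and Il33, Lifr and Saa3 are high there, while Irf7 is low in the 4 stiff libraries and high in the 4 soft ones.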

How the data were processed

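Poly(A) RNA from 8 MEF libraries (500 ng total RNA, NEBNext Ultra kit, 60-base single reads) was sequenced by the authors. Per the labels, the submitters' processing notes name CASAVA 1.8.2, cutadapt, RSEM 1.2.3 and GRCm38. The deposited signal is 1 TMM-normalized CPM value per gene and library, and 100% of values were whole multiples (within 0.1 read) of the value of 1 read, so reads could be recovered. After a filter (1 CPM or more in 2 or more libraries), log2(CPM + 1) was fitted with limma 3.58.1 (R 4.3.3), a scale that understates changes of low genes, with the 4 groups in 1 fit (4 residual degrees of freedom), a mean-variance trend and two-sided tests. Fold values are ratios of mean CPM. Alternatives changed the pseudocount, filter, trend, scaling, test (edgeR 4.0.16 and DESeq2 1.42.0 on recovered reads), replicate block or number of libraries. All 10 genes are named. From the other lists, genes could be named that were among the 2 largest called changes per list, contrast and direction, with a mean of at least 5 CPM and, except for the difference between stiffness effects, groups that did not overlap. Not all of these are printed. For each of the 10 genes the 2 most correlated genes with that mean were found. The genes and lists were chosen with earlier results of these data known. The limma and edgeR fits were tested on simulated counts, scored for the stiffness effect in WT cells only. Promoter matching used RefSeq, and coordinates are from GENCODE M21, which matched 12451 genes.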

Additional observations from a re-analysis of the deposited data

Results flagged for a closer look

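The response to stiffness differed between WT and Cav1KO MEFs for 7 of the 10 genes (limma, adjusted p over all tested genes). It differed for 10.5% of all tested genes. The WT minus Cav1KO difference in log2 fold change was -2.59 for Il6, -2.00 for Cxcl1 and -1.53 for Ccl2, whose signs were opposite in the 2 genotypes. It was -1.21 for Ccl7 and -0.96 for Cxcl5, with adjusted p = 0.0426 and 0.0129. It was 0.87 for Csf1 and 0.54 for Cx3cl1, with adjusted p = 0.0365 and 0.0402. The direction was the same in all alternatives for these 7 genes. The calls of Il6, Cxcl1 and Ccl2 held in all 18 alternatives, and those of Cxcl5, Csf1, Cx3cl1 and Ccl7 did not. No explanation was weighed.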

How the results depend on the processing

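Of 500 gene values under other settings than leaving out a library, 475 kept their direction and side of the threshold, 12 lost a call, 6 gained 1 and 7 changed sign. Of 400 values with 1 library left out the counts were 350, 38, 4 and 8. For values past the threshold in the reported fit no alternative changed the sign. The number of genes called with 1 library left out ranged from 8 to 10 for stiffness in WT cells, 8 to 9 in Cav1KO cells, 3 to 7 for the difference between the stiffness effects (3 without WT stiff 1, Cav1KO soft 1 or Cav1KO soft 2, and 4 without Cav1KO stiff 2), 6 to 7 for genotype on stiff and 6 to 7 on soft. Without the mean-variance trend the difference was called for 4 genes in place of 7. The cause was not tested. Signs changed for values near 0. Ccl7 in Cav1KO cells was -0.12 without Cav1KO stiff 2. The difference for Cxcl12 was 0.12 under quantile normalization, 0.067 without WT stiff 1 and 0.0676 without WT soft 1 (from -0.176 to 0.0676 with 1 library left out). Ccl2 on stiff between genotypes was 0.0455 under quantile normalization, 0.0438 with median centring, 0.0026 with DESeq2 and 0.0316 without WT stiff 2 (from -0.0553 to 0.0316), and Cxcl12 was -0.0157 without WT stiff 1 (to 0.226). On soft, Cxcl5 was 0.27 under quantile normalization, 0.0109 with median centring, 0.0183 with DESeq2, 0.12 without WT soft 1 and 0.0144 without Cav1KO soft 1, and Cxcl12 was -0.071 without WT soft 2 (to 0.173). With the replicate block the 5 counts were 10, 8, 6, 7 and 7. Deviations of same-numbered libraries correlated from -0.37 to 0.42 over the 6 pairs of groups, highest between WT stiff and Cav1KO stiff. With 1 deviation per group, these correlations cannot decide whether same-numbered libraries were paired. Ccl7 at 30 reads sets the depth limit.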

Other observations

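Of 10 adhesion, acute phase and prostaglandin genes 8 were analysed, and 5 (62.5%) were called for stiffness in WT cells, all of them lower on stiff, and 3 were lower and 3 higher in Cav1KO cells, against 48.4% and 56.1% of all genes called. In Cav1KO against WT cells 5 were higher and 2 lower on stiff, and 4 were higher and 3 lower on soft, against 51.7% and 54.0% of all genes called in either direction. Saa3, an acute phase protein, was at 100.8 and 122 CPM in WT stiff, 293 and 229 in WT soft, 598 and 604 in Cav1KO stiff, and 1931 and 1939.6 in Cav1KO soft. Vcam1, an adhesion molecule for monocytes and lymphocytes, was higher in Cav1KO cells on stiff (2.48, adjusted p = 5.77e-06) and on soft (2.62, adjusted p = 3.99e-06, limma). Ptgs2, the inducible cyclooxygenase, was higher on stiff in Cav1KO cells (1.08, adjusted p = 5.29e-05), with a WT value of 0.18 (adjusted p = 0.168) and a difference of -0.90 (adjusted p = 0.0118).

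Of 9 proteases and regulators that shed or cut chemokines 8 were analysed, and 7 were lower on stiff in WT and 6 in Cav1KO cells. Over all tested genes 26.3% were lower in WT and 28.2% in Cav1KO cells. Mmp14 was at 79.9 and 59.9 CPM in WT stiff, 118 and 118 in WT soft, 54.8 and 43.2 in Cav1KO stiff, and 264 and 259 in Cav1KO soft. Timp3, the inhibitor of ADAM17, was lower in Cav1KO cells on stiff (-2.54, adjusted p = 4.56e-08) and soft (-2.70, adjusted p = 3.53e-08). Of 10 genes for mRNA decay and stability, 3 were higher and 3 lower on stiff in WT cells and 2 higher and 3 lower in Cav1KO cells, against 22.1% higher and 26.3% lower of all genes in WT and 27.9% and 28.2% in Cav1KO cells. Among factors that destabilize AU-rich mRNAs the directions were mixed. Zfp36 was lower on stiff in WT (-0.74, adjusted p = 0.00264) and Cav1KO cells (-0.97, adjusted p = 0.000468), while Hnrnpd was higher (0.81, adjusted p = 0.000309, and 0.82, adjusted p = 0.000188) and Khsrp was higher in WT cells (0.68, adjusted p = 0.00660), with a Cav1KO value of 0.18 (adjusted p = 0.354). Elavl1, which stabilizes such mRNAs, was higher in both (0.59, adjusted p = 0.000802, and 0.80, adjusted p = 0.000118).

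The genes with the most similar profile were found as the highest Pearson correlation of log2(CPM + 1) over the 8 libraries, which share 4 groups, so that high values are common. They were Ifi47 (r = 0.998) and Tap1 (0.995) for Cxcl12, St3gal5 (0.996) and Has2 (0.994) for Ccl2, Tor4a (0.993) and Jun (0.991) for Ccl5, Rcan1 (0.983) and Clic1 (0.981) for Cxcl1, and Acsl4 (0.995) and Ptprg (0.994) for Csf1. For Il6 the closest were Hmgcs1 (0.967) and Prpf18 (0.954), the lowest values of the 10 genes.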
